A study of Mus musculus with 12 samples.

Results

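The IL-1 and IL-18 receptor family was read in sorted mouse CD4+ T cells. It was taken as 9 named genes: the receptor chains Il1r1, Il1rl1, Il1rl2 and Il18r1, the accessory chains Il1rap and Il18rap, and the decoy, antagonist and inhibitory genes Il1r2, Il1rn and Sigirr. All 9 were found by gene name among the 55487 genes of the deposited tables. The study sequenced polyadenylated RNA from CD4+ T cells of spleen and peripheral lymph nodes to ask what Rinl, an exchange factor for RAB5 family GTPases of the early endosome, does in these cells. There were 4 groups of 3 libraries: effector cells (CD62L-, CD44 high) from Rinl-KO mice, effector cells from wild-type (WT) mice, naive cells (CD62L+, CD44 low) from Rinl-KO mice and naive cells from WT mice. The sources used here give no age, strain or stimulus for any group, and do not say which part of Rinl was altered. Nor do they state whether each library is a different animal, and every p-value therefore reflects library-to-library spread, which may be technical. The cells were profiled in bulk, so fewer cells of a type and less RNA per cell cannot be told apart.

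Receptors of this family carry an intracellular TIR domain and signal as pairs: a chain that binds the cytokine recruits an accessory chain, and the pair engages MYD88, IRAK kinases and TRAF6 to activate NF-kB and MAP kinases. IL-1 acts on T helper 17 (Th17) cells, IL-18 drives interferon-gamma production by T helper 1 (Th1) and natural killer (NK) cells, and IL-33 acts on T helper 2 (Th2) cells and tissue regulatory T cells (Treg) through the ST2 receptor encoded by Il1rl1. Il1rl2 encodes the IL-36 receptor. Il1r2 encodes a receptor that binds IL-1 but lacks the TIR domain, Il1rn a secreted antagonist that occupies the IL-1 receptor without signalling, and Sigirr a family member that dampens IL-1 and IL-18 receptor signalling.

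Libraries are numbered as in the deposited tables, with KO effector as 10 to 12, WT effector as 4 to 6, KO naive as 7 to 9 and WT naive as 1 to 3. Their total counts ran from 11606251 to 24320247. Rinl averaged 47.6 ± 1.80 CPM in KO effector and 450.0 ± 12.8 CPM in WT effector libraries, and 33.0 ± 1.17 CPM in KO naive and 294 ± 7.58 CPM in WT naive libraries (SD, n = 3 each). Here CPM are counts relative to the TMM-scaled library size. The sort gene Cd44 averaged 229 CPM in KO effector, 257 CPM in WT effector, 18.9 CPM in KO naive and 18.8 CPM in WT naive libraries. Summed markers of CD4+ T cells (Cd3e, Cd3d and Cd4) lay between 1867 and 2031 CPM in all 12.

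Promoter sequence was available for 8 of the 9 members in the RefSeq table (GRCm38.p6), as 14 windows of 250 bases before an annotated start, and each was trimmed to its longest run free of annotated exons. The runs below are shown for the members on which the results turn. Il1r2 and Il1rn differed between KO and WT effector cells. Il1rl1 and Il18rap were near 0 in naive and far higher in effector cells, and Il1rl2 was the member lower in effector cells. Each run is on the plus strand, written 5′ to 3′, with motif matches in capitals.
Il1r2, chr1:40085852-40085984: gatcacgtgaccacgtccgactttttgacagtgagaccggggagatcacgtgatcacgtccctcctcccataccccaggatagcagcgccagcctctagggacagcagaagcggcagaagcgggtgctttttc
Il1rn, upstream start, chr2:24336610-24336852: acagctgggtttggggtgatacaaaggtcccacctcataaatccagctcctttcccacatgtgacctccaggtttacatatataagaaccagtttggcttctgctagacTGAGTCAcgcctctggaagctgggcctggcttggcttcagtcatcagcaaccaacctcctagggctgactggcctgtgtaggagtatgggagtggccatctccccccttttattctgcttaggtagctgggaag
Il1rn, downstream start, chr2:24345041-24345287: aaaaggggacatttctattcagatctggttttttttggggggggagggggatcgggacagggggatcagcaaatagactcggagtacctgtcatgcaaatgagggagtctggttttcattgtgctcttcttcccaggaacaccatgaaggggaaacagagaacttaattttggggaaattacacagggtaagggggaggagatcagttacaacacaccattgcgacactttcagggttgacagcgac
Il1rl1, upstream start, chr1:40429320-40429569: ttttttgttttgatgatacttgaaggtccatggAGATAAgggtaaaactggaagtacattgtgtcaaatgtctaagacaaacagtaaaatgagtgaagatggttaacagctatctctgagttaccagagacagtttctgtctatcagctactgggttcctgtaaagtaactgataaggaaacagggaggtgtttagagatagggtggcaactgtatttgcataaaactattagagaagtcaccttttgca
Il1rl1, downstream start, chr1:40439379-40439626: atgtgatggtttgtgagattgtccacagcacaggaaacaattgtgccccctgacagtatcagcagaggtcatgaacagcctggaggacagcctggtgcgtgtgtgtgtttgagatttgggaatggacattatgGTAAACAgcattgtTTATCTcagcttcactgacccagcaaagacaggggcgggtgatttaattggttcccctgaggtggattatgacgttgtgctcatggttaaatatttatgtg
Il18rap, chr1:40515112-40515361: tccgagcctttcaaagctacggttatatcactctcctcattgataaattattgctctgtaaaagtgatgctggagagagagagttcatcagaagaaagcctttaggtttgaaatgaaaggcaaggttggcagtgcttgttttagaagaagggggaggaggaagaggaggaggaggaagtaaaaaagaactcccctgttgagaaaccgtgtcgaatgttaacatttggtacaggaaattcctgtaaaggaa
Il1rl2, chr1:40324339-40324588: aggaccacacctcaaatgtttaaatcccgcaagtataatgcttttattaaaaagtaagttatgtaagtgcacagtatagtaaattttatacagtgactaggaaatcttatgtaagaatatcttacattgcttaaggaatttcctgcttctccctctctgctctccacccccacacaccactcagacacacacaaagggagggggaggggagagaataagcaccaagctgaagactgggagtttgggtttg
Both strands were searched for short consensus letters, and each share below is of 32817 promoter windows of the same length. The AP-1 letters TGANTCA were in 6.75% of windows and the STAT letters TTCNNNGAA in 7.01%. The T-box letters TCACACC, of the family that includes the Th1 factor T-bet, were in 3.33%. The GATA letters AGATAA, of the family that includes the Th2 factor GATA3, were in 9.99%. The forkhead letters TGTTTAC, of the family that includes the Treg factor FOXP3, were in 3.16%. The NFAT letters GGAAAA were in 20.4% and a degenerate NF-kB site in 7.25%. The upstream start of Il1rn had an AP-1 match 141 bases before it, which 6.64% of promoters held in the same slice. At the upstream start of Il1rl1 a GATA match stood 217 bases before it. The downstream start of Il1rl1 had a GATA match at 103 bases and a forkhead match at 117 bases, held by 9.94% and 3.13% of promoters in that slice. The matches did not overlap each other. Among the runs not shown, the downstream start of Il1r1 had an NF-kB match 232 bases before it and a start of Il18r1 a STAT match 152 bases before it. No searched letters were in the runs of Il1r2, Il18rap and Il1rl2 or at the downstream start of Il1rn. The Il1r2 run held 133 bases and ended 108 bases before its start, so the bases nearest that start were not searched. That start also lies inside the Il1r2 gene model, which begins at 40074079. These matches are letters in a window, not measured binding, and the gene-level counts do not separate the starts of Il1rn or Il1rl1.

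Levels are compared between genes as FPKM, which divides by gene length. Il18r1 and Sigirr led the family in effector cells, with means of 72.1 ± 4.32 and 64.8 ± 4.42 FPKM in KO and of 82.3 ± 10.3 and 62.7 ± 3.44 FPKM in WT libraries. Il18rap and Il1r2 followed, at 30.1 ± 5.79 and 24.9 ± 7.32 FPKM in KO effector libraries, where their ranges overlapped, and at 50.6 ± 15.0 and 13.2 ± 1.95 FPKM in WT effector libraries, where they did not (SD, n = 3 each). Il1rl1, Il1rl2 and Il1rap lay between 2.40 and 6.27 FPKM in the 6 effector libraries, with Il1rl1 and Il1rl2 overlapping in both genotypes. Il1r1 and Il1rn were lowest. In KO effector cells their ranges overlapped, at 1.36 ± 0.132 FPKM for Il1r1 and 1.54 ± 0.352 FPKM for Il1rn, while in WT effector cells Il1r1 at 1.16 ± 0.116 FPKM stood above Il1rn at 0.611 ± 0.175 FPKM. Naive cells of both genotypes had a shorter list: Sigirr, Il18r1, Il1rl2 and Il1rap, in that order and without overlap, and the other 5 members below 0.34 FPKM in every naive library.

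**Figure D1:**
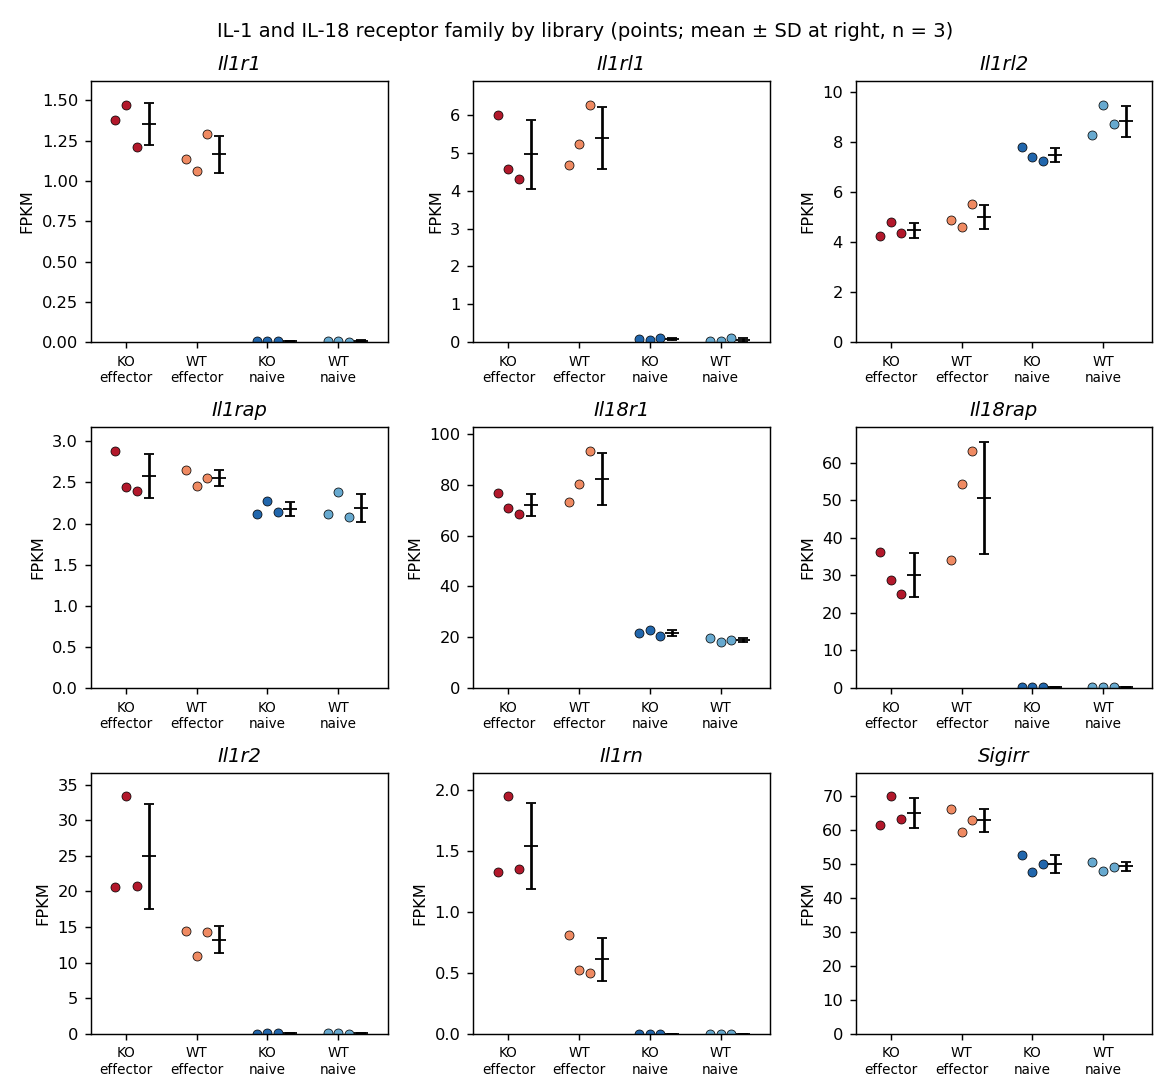
FPKM of the 9 members in each library, with the mean ± SD of 3 libraries to the right of the points; each panel has its own linear axis from 0. Il1r2 is between 20.6 and 33.4 FPKM in KO effector libraries and between 11.0 and 14.4 FPKM in WT effector libraries, and 5 members are near 0 in naive cells.

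The first comparison asks where these receptors stand between effector and naive cells. All 9 members passed the test in KO cells and all 9 in WT cells (edgeR quasi-likelihood test, Benjamini-Hochberg adjusted p under 0.05 over 15905 genes), where 58.4% of all genes passed in KO and 56.2% in WT cells. In each genotype 8 were higher and 1 was lower in effector cells. Il1r1, Il1r2 and Il1rn passed the filter on low counts only through the effector libraries, where they were high. Their difference was thus largely fixed by the filter, and the counts over the 9 are a description that is not read against the share of all genes. Of the 6 members that also pass the filter on the naive libraries alone, 5 were higher and 1 was lower in effector cells of each genotype. As a description, the median log2 fold change of the 9 members was 5.84 in KO and 6.65 in WT cells (4.79 in WT with Il1rn at its lower bound). That median includes the 3 members let through by the effector libraries, so it is not read against all genes. Of the other 6 members, Il18rap, Il1rl1 and Il18r1 had 6.70, 5.84 and 1.75 in KO and 7.54, 6.65 and 2.13 in WT cells. Sigirr, Il1rap and Il1rl2 had 0.38, 0.25 and -0.74 in KO and 0.35, 0.22 and -0.82 in WT cells.

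Among the cytokine-binding chains, Il1r1, the signalling receptor for IL-1, was far higher in effector cells. It had 146, 188 and 89 counts in KO effector libraries 10, 11 and 12 and 114, 88 and 134 counts in WT effector libraries 4, 5 and 6, against 1 count in each KO naive library and 1, 1 and 0 counts in WT naive libraries. The effector and naive libraries lay far apart. With 3 and 2 naive counts in all, the ratio of pooled, library-scaled counts was 187 in KO cells (95% counting interval 63.5 to 910) and 179 in WT cells (49.3 to 1487).

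Il1rl1, which encodes the IL-33 receptor ST2, had 6.01, 4.58 and 4.30 FPKM in KO effector libraries, against 0.0945, 0.0619 and 0.105 FPKM in KO naive libraries. In WT cells it had 4.68, 5.22 and 6.27 FPKM in effector libraries, against 0.0304, 0.0389 and 0.109 FPKM in naive libraries. No effector library came near a naive one, and the log2 fold change was 5.84 ± 0.23 in KO and 6.65 ± 0.27 in WT cells (edgeR adjusted p = 6.4e-12 and 9.9e-12). Sums of 4 Th2 markers, a subset known for ST2, lay between 126 and 134 CPM in KO effector and between 127 and 138 CPM in WT effector libraries, against 48.8 to 53.1 CPM in KO naive and 49.7 to 54.1 CPM in WT naive libraries. Treg marker sums lay between 1267 and 1481 CPM in KO effector and between 1068 and 1247 CPM in WT effector libraries, against 148 to 160 CPM in KO naive and 125 to 138 CPM in WT naive libraries. The Th2 sum is almost all Gata3, with Il4 at 5.50 CPM in KO effector and 5.99 CPM in WT effector libraries, Il13 at or below 9 counts per group and Il5 at 0 counts in WT effector libraries. The part of these subsets in the level of Il1rl1 was not tested.

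Il1rl2, the IL-36 receptor, was the exception. It had 4.22, 4.80 and 4.35 FPKM in KO effector libraries, against 7.80, 7.38 and 7.23 FPKM in KO naive libraries, and 4.88, 4.59 and 5.50 FPKM in WT effector libraries, against 8.28, 9.47 and 8.69 FPKM in WT naive libraries. All effector libraries were below all naive ones. The log2 fold change was -0.74 ± 0.08 in KO and -0.82 ± 0.08 in WT cells (edgeR adjusted p = 2.1e-08 and 4.1e-09). A processed pseudogene model, Gm17970, overlaps Il1rl2 on the same strand with 160 counts over all libraries beside 5657 for Il1rl2, and the rule by which reads common to both were counted is not stated in the labels or files.

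The IL-18 receptor chains differed in their naive level. Il18r1, the cytokine-binding chain, was already present in naive cells, at 21.5, 22.8 and 20.4 FPKM in KO and 19.5, 18.0 and 19.0 FPKM in WT libraries. Effector libraries stood higher, at 76.9, 71.0 and 68.5 FPKM in KO and 73.3, 80.1 and 93.4 FPKM in WT cells, a log2 fold change of 1.75 ± 0.08 in KO and 2.13 ± 0.08 in WT cells (edgeR adjusted p = 4.8e-12 and 5.9e-13). Il18rap, the accessory chain needed for IL-18 signalling, was nearly absent in naive cells. It had 36.4, 28.9 and 25.0 FPKM in KO effector libraries, against 0.335, 0.329 and 0.188 FPKM in KO naive libraries. In WT cells it had 34.0, 54.4 and 63.3 FPKM in effector libraries, against 0.266, 0.272 and 0.270 FPKM in naive libraries. Its log2 fold change was 6.70 ± 0.39 in KO and 7.54 ± 0.40 in WT cells (edgeR adjusted p = 4.7e-07 and 2.9e-07). The ratio of Il18rap to Il18r1 FPKM within a library was accordingly 0.365 to 0.473 in KO effector and 0.465 to 0.679 in WT effector libraries, against 0.00922 to 0.0156 in KO naive and 0.0136 to 0.0151 in WT naive libraries. Innate-like lymphocytes are known to carry both chains, and their 5 measured markers (Zbtb16, Klrk1, Klrb1c, Ncr1 and Trdc, of NK, NKT or gamma-delta T cells) summed to 121 to 160 CPM in KO effector and 194 to 196 CPM in WT effector libraries, against 11.0 to 13.2 CPM in KO naive and 8.96 to 12.6 CPM in WT naive libraries. The step was carried by Zbtb16, Klrk1 and Klrb1c, which averaged 25.2, 47.0 and 56.1 CPM in KO effector and at most 0.525 CPM each in KO naive libraries. In WT cells they averaged 42.8, 67.9 and 77.4 CPM in effector and at most 0.125 CPM each in naive libraries. Trdc, the constant region of the delta chain of gamma-delta T cells, went the other way and made up most of the naive sum. It averaged 5.56 CPM in KO effector, against 10.5 CPM in KO naive libraries (log2 fold change -0.91 ± 0.16, edgeR adjusted p = 4.4e-05), and 6.67 CPM in WT effector, against 10.6 CPM in WT naive libraries (-0.66 ± 0.16, edgeR adjusted p = 0.0013). Th1 markers summed to 246 to 265 CPM in KO effector and 316 to 366 CPM in WT effector libraries, and to at most 2.05 CPM in any naive library. Their part in the level of Il18rap was not tested.

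The accessory chain Il1rap, shared by the receptors for IL-1, IL-33 and IL-36, changed little. It had 2.89, 2.44 and 2.40 FPKM in KO effector libraries, against 2.12, 2.27 and 2.14 FPKM in KO naive libraries, and 2.65, 2.46 and 2.55 FPKM in WT effector libraries, against 2.11, 2.38 and 2.07 FPKM in WT naive libraries. The effector libraries stood just above the naive ones in each genotype. Log2 fold changes were 0.25 ± 0.08 in KO and 0.22 ± 0.09 in WT cells (edgeR adjusted p = 0.013 and 0.035), and Il1rap passed in 15 of 20 alternatives in KO and 12 of 20 in WT cells.

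Of the genes that restrain IL-1 signalling, Il1r2 and Il1rn were nearly confined to effector libraries. Il1r2 had 507, 988 and 353 counts in KO effector libraries and 335, 211 and 344 counts in WT effector libraries, against 1, 2 and 1 counts in KO naive and 2, 1 and 0 counts in WT naive libraries. Its log2 fold change was 9.06 ± 0.40 in KO cells, a value that rests on 4 naive counts. In WT cells, with 3 naive counts, the ratio was 317 (95% counting interval 108 to 1539). Il1r2 passed the filter on low counts only through the effector libraries, so this difference was largely fixed and no p-value is given. Il1rn had 62, 110 and 44 counts in KO effector libraries and 36, 19 and 23 counts in WT effector libraries, against 0 counts in all 6 naive libraries. Against a floor of 3 counts over the naive group, it was at least 95.4-fold higher in KO and at least 27.8-fold higher in WT effector cells. These intervals and floors cover counting error only. Sigirr, which dampens signalling by the other receptors, was abundant in every group, at 61.5, 69.8 and 63.2 FPKM in KO effector libraries, against 52.5, 47.5 and 49.9 FPKM in KO naive libraries. It had 66.1, 59.2 and 62.8 FPKM in WT effector libraries, against 50.5, 48.0 and 49.1 FPKM in WT naive libraries. All effector libraries were above all naive ones by a small step, with a log2 fold change of 0.38 ± 0.05 in KO and 0.35 ± 0.05 in WT cells (edgeR adjusted p = 1.4e-06 and 6.9e-06).

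**Figure D2:**
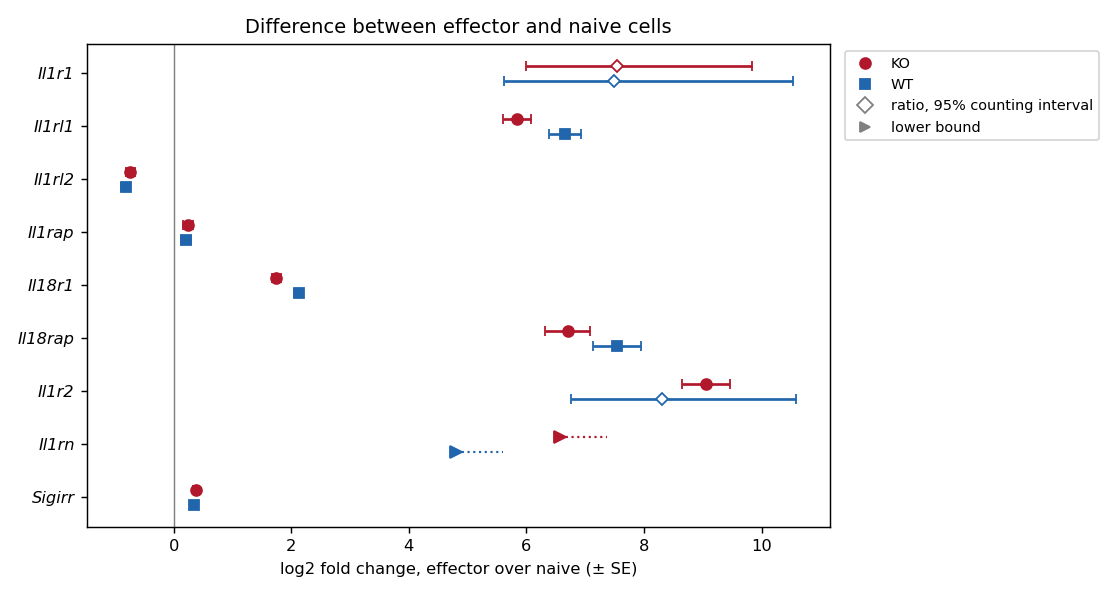
Log2 fold change of effector over naive cells for each member in KO cells (circles, upper) and WT cells (squares, lower), with bars for the standard error; open diamonds are ratios with 95% counting intervals, for members with 3 or fewer naive counts, and triangles are lower bounds, for Il1rn. Il1rl2 alone lies left of 0, at -0.74 in KO and -0.82 in WT cells.

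Of the 9 members, 6 lie side by side on the plus strand of chromosome 1 (GRCm38), from 40074079 to 40551705, a span of 478 kb in the order Il1r2, Il1r1, Il1rl2, Il1rl1, Il18r1 and Il18rap. Between Il1rl1 and Il18r1 lie 136 bases, between Il1r1 and Il1rl2 7352 bases, and between Il18r1 and Il18rap 14507 bases. The largest gap, of 99848 bases, is between Il1r2 and Il1r1. Il1rn is on chromosome 2 (24336853 to 24351494, plus strand), Sigirr on chromosome 7 (141091175 to 141100572, minus strand) and Il1rap on chromosome 16 (26581704 to 26730117, plus strand). Within the cluster the 5 genes higher in effector cells stand around Il1rl2, which was lower. Of the 3 nearest named genes on each side, Map4k4 and Mfsd9 were abundant enough to test. Map4k4, a kinase gene upstream of the cluster, was lower in effector cells by a log2 fold change of -0.44 ± 0.04 in KO and -0.31 ± 0.05 in WT cells (edgeR adjusted p = 9.6e-09 and 2.7e-06). For Mfsd9 the values were -0.09 and 0.34 (edgeR adjusted p = 0.70 and 0.12).

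**Figure D3:**
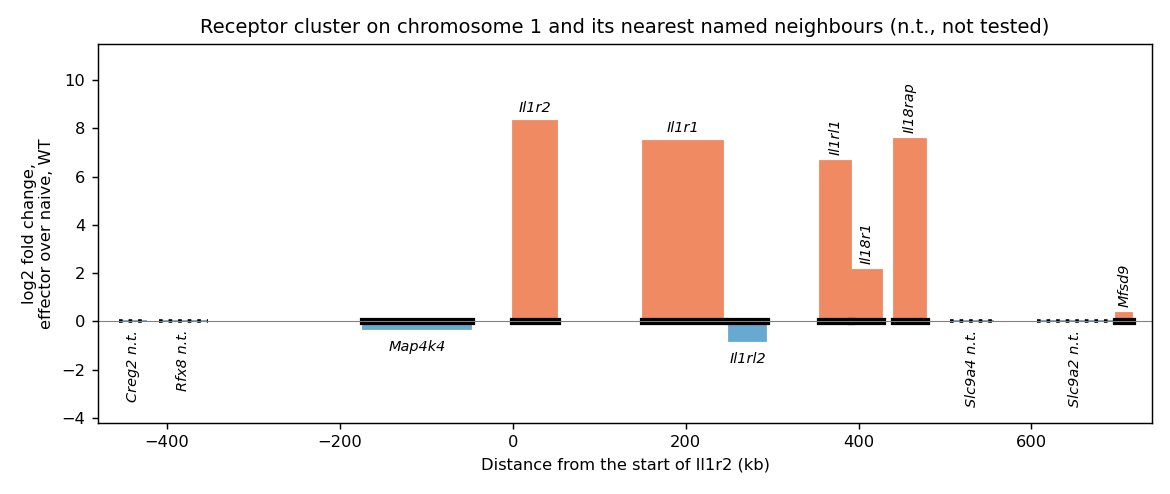
Genes of the chromosome 1 cluster and their 3 nearest named neighbours on each side, drawn to scale by distance from the start of Il1r2, with bar height giving the log2 fold change of effector over naive WT cells (the log2 pooled ratio for Il1r2 and Il1r1) and n.t. marking genes too low to test. The bar of Il1rl2, at -0.82, points down between those of Il1r1 and Il1rl1.

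The second comparison asks which members differed with loss of Rinl in effector cells. Of the 9 members, 2 passed the test, both higher in KO cells, where 3.16% of all genes passed; with DESeq2 and with limma-voom there were also 2. They were Il1r2 and Il1rn, the decoy receptor and the antagonist. These were also the 2 of 9 members whose 3 KO libraries stood clear of the 3 WT libraries. That count is near the 17.9% of all genes that separated in this way, so it is not a result about the members. At an unadjusted p under 0.05 by edgeR there were 4 of 9, with Il18rap and Il18r1 added, where 2560 of all 15905 genes were below it. The median log2 fold change over the 9 members was 0.01, and over all genes 0.00.

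Il1r2 (ENSMUSG00000026073) had 29.4, 47.6 and 29.6 CPM in KO effector libraries 10, 11 and 12, against 20.6, 15.7 and 20.4 CPM in WT effector libraries 4, 5 and 6. All 3 KO libraries were above all 3 WT libraries, with library 11 the highest and library 5 the lowest. The log2 fold change was 0.92 ± 0.17 (edgeR adjusted p = 0.014), and it passed in 17 of 20 alternatives. The call ended without library 5 (0.81, edgeR adjusted p = 0.070), in a fit of the effector libraries alone (0.91, edgeR adjusted p = 0.14) and on log2(FPKM + 0.1) values (0.88, limma adjusted p = 0.11). An antisense gene model in Il1r2, Gm16894, had 92 counts over all 12 libraries beside 2745 for Il1r2, and no label or file states whether counting used strand.

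Il1rn (ENSMUSG00000026981) had 3.60, 5.30 and 3.69 CPM in KO effector libraries, against 2.21, 1.42 and 1.36 CPM in WT effector libraries. The groups again did not overlap, and library 11 was again the highest. The log2 fold change was 1.34 ± 0.25 (edgeR adjusted p = 0.0052), from 216 counts over the KO and 78 over the WT effector group. It passed in 18 of 19 alternatives. Without library 11 it was 1.12 (edgeR adjusted p = 0.066).

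**Figure D4:**
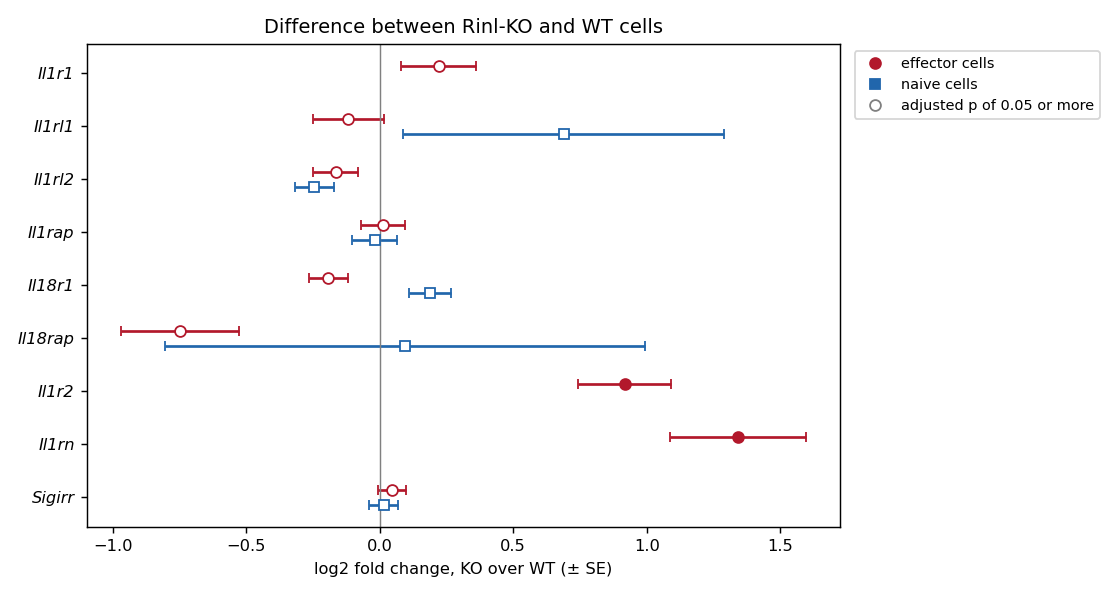
Log2 fold change of KO over WT with its standard error for each member in effector cells (circles, upper) and naive cells (squares, lower); filled symbols passed the edgeR test and open symbols did not. Il1r2 at 0.92 and Il1rn at 1.34 are the filled ones, both in effector cells, and Il1r1, Il1r2 and Il1rn have no naive value because of fewer than 10 naive counts.

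In mouse and human lymphoid tissue, follicular regulatory T cells, which share genes with Treg and T follicular helper (Tfh) cells, are known to make IL-1R2 and the IL-1 antagonist. Of 4 Treg markers, 2 passed in KO effector cells, Foxp3 (log2 fold change 0.35 ± 0.07, edgeR adjusted p = 0.010) and Ctla4 (0.33 ± 0.05, edgeR adjusted p = 7.6e-04). The Treg sums were 1470.3, 1481 and 1267 CPM in KO effector libraries 10, 11 and 12, against 1247, 1068 and 1087 CPM in WT effector libraries 4, 5 and 6, with no overlap. Of 4 Tfh markers, Cxcr5, the follicle homing receptor, came nearest to the threshold at 0.46 ± 0.12 (edgeR adjusted p = 0.068). The Tfh sums were 355, 508 and 380 CPM in KO effector libraries, against 353, 274 and 288 CPM in WT effector libraries. None of the 4 Tfh markers passed. Macrophage and dendritic cells also make the antagonist, and their 6 markers summed to 15.1 to 26.3 CPM in KO effector and 2.40 to 19.9 CPM in WT effector libraries. In naive cells the same sum was 10.6 to 18.1 CPM in KO and 2.68 to 10.4 CPM in WT libraries. None of the 6 markers was at 0 over any of the 4 groups. Neutrophils are known for IL-1R2. Their markers S100a9, S100a8 and Csf3r averaged 1.44, 0.663 and 0.472 CPM in KO effector and 0.303, 0.223 and 0.158 CPM in WT effector libraries. Mmp9 and Retnlg went the other way, at 32.8 and 0.104 CPM in KO effector and 45.2 and 0.129 CPM in WT effector libraries. Between KO and WT effector cells the edgeR adjusted p was 0.51 or more for the 4 tested markers of macrophages and dendritic cells, and 0.16 or more for the 3 of neutrophils. The part of these cell types in the differences of Il1r2 and Il1rn was not tested.

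The IL-18 receptor chains did not pass in effector cells. Il18rap (ENSMUSG00000026068) had 178, 142 and 123 CPM in KO effector libraries 10, 11 and 12, against 167, 268 and 311 CPM in WT effector libraries 4, 5 and 6. WT library 4 lay within the KO range, and the other two WT libraries lay above it. The log2 fold change was -0.75 ± 0.22 (unadjusted p = 0.0089, edgeR adjusted p = 0.13); without library 4 it was -0.97 (edgeR adjusted p = 0.0060). Il18r1 (ENSMUSG00000026070) had 372, 344 and 332 CPM in KO effector libraries, against 355, 389 and 453 CPM in WT effector libraries, with overlap through library 4 again. Its log2 fold change was -0.19 ± 0.07 (edgeR adjusted p = 0.19), and it passed without library 4 (-0.27, edgeR adjusted p = 0.016) and with no filter on low counts (-0.19, edgeR adjusted p = 0.0032). Of 4 Th1 markers, 2 passed as lower in KO effector cells, Tbx21 (-0.59 ± 0.08) and Il12rb2 (-0.57 ± 0.12), and so did 3 of the 5 innate-like markers, Zbtb16 (-0.75 ± 0.15), Klrk1 (-0.53 ± 0.12) and Klrb1c (-0.47 ± 0.07). Of the same 5, Trdc did not pass (-0.27 ± 0.18, edgeR adjusted p = 0.49). Ncr1 went the other way without passing (0.83 ± 0.49, edgeR adjusted p = 0.44), at 0.758 CPM in KO effector and 0.453 CPM in WT effector libraries. In WT libraries 4, 5 and 6 the innate-like markers summed to 194, 195 and 196 CPM and the Th1 markers to 335, 366 and 316 CPM. The Treg sums were 1247, 1068 and 1087 CPM and the Tfh sums 353, 274 and 288 CPM, with library 4 the highest in both. The part of these cells in the Il18rap and Il18r1 values was not tested.

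Among the other members, Il1r1 averaged 8.32 ± 0.808 CPM in KO effector and 7.17 ± 0.705 CPM in WT effector libraries, a log2 fold change of 0.22 with a 95% interval of -0.05 to 0.49 (edgeR adjusted p = 0.47). The intervals in this paragraph treat the estimate as normal around its standard error, so they are narrower than the edgeR test implies. Il1rl1 averaged 34.1 ± 6.25 CPM in KO and 37.1 ± 5.57 CPM in WT effector libraries, and the interval of its log2 fold change ran from -0.38 to 0.14. Both genotypes thus overlapped for the IL-1 and IL-33 receptors. Il1rl2, at 18.1 ± 1.25 CPM in KO and 20.3 ± 1.86 CPM in WT effector libraries, had an interval of -0.33 to 0.00 (edgeR adjusted p = 0.35). Il1rap (22.3 ± 2.32 CPM in KO and 22.1 ± 0.787 CPM in WT, interval -0.15 to 0.18) and Sigirr (149 ± 10.2 CPM in KO and 145 ± 7.64 CPM in WT, interval -0.06 to 0.15) completed the family, and their libraries overlapped.

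Ratios within a library set the restraining genes against the signalling receptor on the FPKM scale. Il1r2 over Il1r1 was 15.0, 22.6 and 17.1 in KO effector libraries, against 12.7, 10.3 and 11.1 in WT effector libraries. Il1rn over Il1r1 was 0.960, 1.32 and 1.12 in KO effector libraries, against 0.714, 0.488 and 0.388 in WT effector libraries. Neither ratio overlapped between the genotypes. The exact two-sided permutation test gave p = 0.1 for each, the smallest that 3 against 3 libraries allow. Il18rap over Il18r1 was 0.473, 0.407 and 0.365 in KO effector libraries, against 0.465, 0.679 and 0.677 in WT effector libraries (exact permutation p = 0.2). In library 4 this ratio lay among the KO values. Of 5 ratios compared in this way, none could fall below 0.1 before adjustment.

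**Figure D5:**
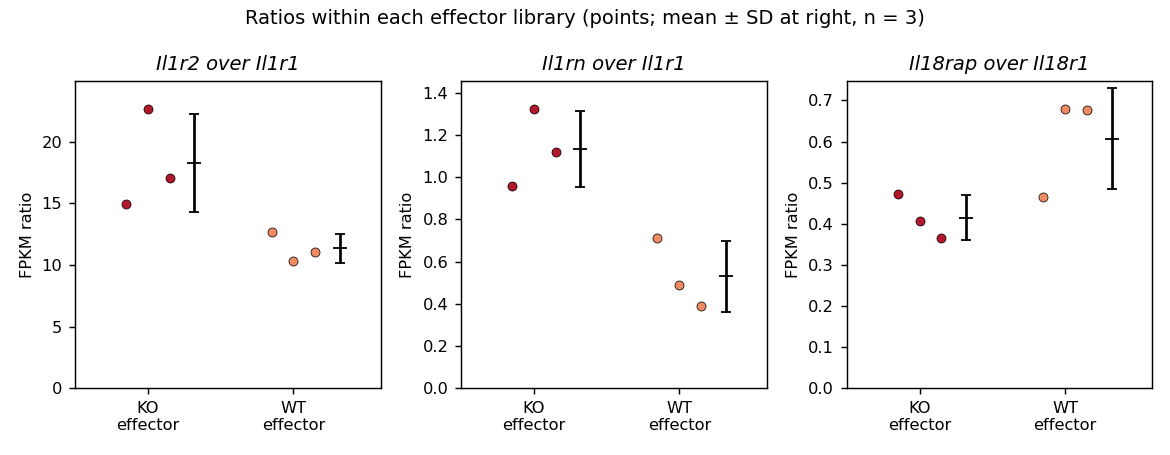
FPKM ratios within each effector library, KO left and WT right, with mean ± SD of 3 libraries beside the points. For Il1r2 over Il1r1 and Il1rn over Il1r1 the KO points lie above the WT points; for Il18rap over Il18r1 the KO range of 0.365 to 0.473 includes WT library 4 at 0.465.

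The third comparison asks which members differed with loss of Rinl in naive cells. Il1r1, Il1r2 and Il1rn had fewer than 10 counts over the 6 naive libraries and no fold change is given for them. Of the other 6 members, 0 passed the edgeR test, where 1.18% of all genes did, and 0 passed with DESeq2 or limma-voom. At an unadjusted p under 0.05 by edgeR there were 2 of 6, where 1885 of all 15905 genes were below it. These were also the 2 of 6 whose libraries did not overlap. Of all genes 20.5% did not overlap, and with only 6 members the count is not a result about them. Their median log2 fold change was 0.05, and that of all genes 0.00.

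Il1rl2, the IL-36 receptor, had 31.6, 29.9 and 29.3 CPM in KO naive libraries 7, 8 and 9, against 33.8, 38.6 and 35.2 CPM in WT naive libraries 1, 2 and 3. All KO libraries were below all WT libraries. The log2 fold change was -0.25 ± 0.07 (unadjusted p = 0.0028, edgeR adjusted p = 0.12), and it passed in a fit of the naive libraries alone (edgeR adjusted p = 0.024). Il18r1 had 104, 110.1 and 98.5 CPM in KO naive libraries, against 94.99, 87.4 and 92.0 CPM in WT naive libraries, so here all KO libraries were above all WT libraries. Its log2 fold change was 0.19 ± 0.08 (edgeR adjusted p = 0.35), and it passed with no filter on low counts (edgeR adjusted p = 0.016) and in a fit of the naive libraries alone (edgeR adjusted p = 0.024). Il1rap and Sigirr had log2 fold changes of -0.02 ± 0.08 and 0.01 ± 0.05. Il18rap and Il1rl1 were too low for a precise value in naive cells, with log2 fold changes of 0.09 ± 0.90 and 0.69 ± 0.60 from 94 and 66 counts over KO and WT libraries for Il18rap and 39 and 18 counts for Il1rl1.

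Whether the effect of Rinl loss differed between effector and naive cells was tested as the difference of the log2 fold changes. Of the 6 members tested, 0 passed by edgeR, DESeq2 or limma-voom, where 0.145% of all genes passed by edgeR. By edgeR 1 of 6 had an unadjusted p under 0.05, as did 1461 of all 15905 genes, so the count is not a result about the members. The member was Il18r1, with -0.19 in effector and 0.19 in naive cells. The difference was -0.38 ± 0.11 (unadjusted p = 0.0027, edgeR adjusted p = 0.23). It passed without library 4 (-0.46, edgeR adjusted p = 0.018) and with no filter on low counts (-0.38, edgeR adjusted p = 4.5e-05). For the other 5 members the edgeR adjusted p was 0.75 or more.

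The cytokines of the family were scarce in these cells. Of 10 ligand and soluble inhibitor genes matched by name, 2 passed the filter on low counts, Il18 and Il18bp, which encodes a soluble protein that binds IL-18. Il18 averaged 1.46 ± 0.0437 CPM in KO effector and 0.117 ± 0.085 CPM in KO naive libraries, and 1.43 ± 0.432 CPM in WT effector and 0.0553 ± 0.0957 CPM in WT naive libraries. Il18 had 73 counts over KO effector and 8 over KO naive libraries, and 66 over WT effector and 2 over WT naive libraries. With so few naive counts it passed the filter through the effector libraries. Its difference between effector and naive cells was thus largely fixed, and no p-value is given. Il18bp averaged 6.91 ± 0.700 CPM in KO effector and 5.08 ± 0.416 CPM in KO naive libraries (log2 fold change 0.44 ± 0.16, edgeR adjusted p = 0.021), and 5.56 ± 1.57 CPM in WT effector and 4.71 ± 0.547 CPM in WT naive libraries (0.25 ± 0.17, edgeR adjusted p = 0.22). Between KO and WT neither passed in either cell type, at edgeR adjusted p of 0.98 for Il18 and 0.40 for Il18bp in effector cells. Il33, which encodes the ligand of ST2, had 0 counts in all 12 libraries. Il1a and the IL-36 genes, listed under their older symbols Il1f5, Il1f6, Il1f8 and Il1f9, had at most 2 counts in any group. Il1b had 4 counts over KO effector, 0 over WT effector, 9 over KO naive and 1 over WT naive libraries.

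Downstream of the receptors, 23 of 24 signalling genes were tested. In effector against naive cells 11 rose and 3 fell in KO and 11 rose and 4 fell in WT cells. These are 60.9% and 65.2% of the list, near the 58.4% and 56.2% of all genes, so the count is not a result about the pathway. The E3 ligase gene Peli2 had the largest change of the list, with a rise of 2.20 ± 0.29 on the log2 scale in KO and 1.66 ± 0.34 in WT cells, at the low level of 2.99 CPM in KO effector and 1.87 CPM in WT effector libraries, against 0.664 CPM in KO naive and 0.632 CPM in WT naive libraries. Irak2, a kinase of the receptor complex, rose by a log2 value of 0.88 ± 0.06 in KO and in WT cells, and Tnfaip3, which encodes the NF-kB inhibitor A20, by 0.76 ± 0.06 in KO and 0.92 ± 0.06 in WT cells. The NF-kB inhibitor gene Nfkbia rose by 0.57 in KO and 0.62 in WT cells, and Irak3, a kinase-like gene that restrains the pathway, by 0.45 in KO and 0.58 in WT cells. The NF-kB subunit genes Nfkb1 and Rela rose too, by 0.50 and 0.19 in KO and 0.52 and 0.21 in WT cells. The other genes that rose were Nfkbiz, Tab2, Irak4 and Ube2n, by 0.53, 0.35, 0.34 and 0.25 in KO and 0.46, 0.38, 0.38 and 0.23 in WT cells. Peli1, a relative of Peli2, fell, with -0.62 ± 0.04 in KO and -0.85 ± 0.04 in WT cells, as did Traf6 (-0.33 in KO and -0.26 in WT) and Ikbkb (-0.36 in KO and -0.27 in WT). Ikbkg passed as lower in WT cells only (-0.21). Between KO and WT effector cells 1 of 23 fell, or 4.35% of the list, near the 3.16% of all genes. It was Tab1, which encodes a partner of the kinase TAK1, with -0.31 ± 0.07 (edgeR adjusted p = 0.0074). In naive cells 3 of 23 passed, where 1.18% of all genes did. Tab1 (-0.28, edgeR adjusted p = 0.025) and Peli1 (-0.18, edgeR adjusted p = 0.024) fell and Tnfaip3 rose (0.24, edgeR adjusted p = 0.038) in KO cells. The medians over the 23 genes were 0.05 in effector and 0.04 in naive cells for KO against WT. For the difference of these effects between the cell types, Peli1 came nearest to the threshold, at 0.23 ± 0.06 (unadjusted p = 6.0e-04, edgeR adjusted p = 0.13).

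As a description of likeness, Pearson's r of log2 CPM was taken over the 12 libraries against 9538 or 9539 genes with a mean of at least 5 CPM. The nearest genes were Phactr2 for Il1r2 (r = 0.999), Lxn for Il1r1 (0.999), Kcnq5 for Il1rl1 (0.999), Ptpn11 for Il1rn (0.998), Rap1gap2 for Il18r1 (0.997) and Atp8a2 for Il18rap (0.998). Next came Myo1e and Ergic1 for Il1r2, Susd2 and Abcb1a for Il1r1, Asb2 and Coro2a for Il1rl1, Stx6 and Hif1a for Il1rn, Prrt1 and Il18rap for Il18r1, and Prrt1 and Zfp683 for Il18rap. The members with a smaller step had lower values, at 0.988 for Il1rl2 (Flot2, then Otud1 and Pde4b), 0.987 for Sigirr (Map4k1, then Zfp219 and Sik3) and 0.939 for Il1rap (Oas1c, then Alg6 and Arhgef6). All 12 libraries share the split between effector and naive cells and no r was taken within a group. Among the members, Il1r1 and Il1r2 had the highest value, at r = 0.9971, followed by Il18r1 and Il18rap at 0.9965. Il1r1 and Il18rap had r = 0.9908 and Il1r2 and Il1rn r = 0.9906. Il1rl2 was negative with each of the other 8, between -0.95 and -0.77.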

How the data were processed

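Libraries were made with a stranded mRNA kit, per the labels' protocols. The authors deposited whole-number counts per gene for 12 libraries, and an FPKM table in which, on 11921 genes with at least 20 counts in every library, the deposited FPKM equalled those counts divided by 1 length per gene and 1 factor per library. The submitters' processing notes name STAR, Picard, DESeq2 1.30.0 and the builds GRCm38 and mm10. No source used here names the counting tool or says how strand and shared reads were treated. Column names show genotype and cell type but not the replicate numbers of the labels. Pairs of libraries within a group had a chi-square per gene of 2.25 to 5.89, above sampling noise, and all were counted as separate replicates.

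Counts were fitted in R 4.3.3 with edgeR 4.0.16 (TMM, filterByExpr, 1 quasi-likelihood model of the 4 groups, 15905 genes), with Benjamini-Hochberg adjustment over all of them at 0.05. Members with fewer than 10 counts over both naive groups got no KO effect there. The model was tested on simulated data. The members, gene lists and tests were chosen with earlier results of these data known. Genes named are the members, listed genes that passed, defining markers, and the 3 genes most correlated with each member. Alternatives tried were limma-voom (limma 3.58.1), DESeq2 1.42.0, its size factors within edgeR, no filter, a mean of at least 5 CPM, only the groups compared, limma on log2(FPKM + 1) and log2(FPKM + 0.1), and each library left out. Coordinates are the deposited table's (GRCm38).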

Additional observations from a re-analysis of the deposited data

How the results depend on the processing

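Over 20 alternatives, Il1rl1, Il1rl2, Il18r1, Il18rap and Sigirr kept their calls between effector and naive cells in both genotypes, and Il1rap did not. Il1r2 also kept its calls, as did Il1r1 and Il1rn in the 19 that tested them. The calls of these 3 were largely fixed, because they passed the filter on low counts only through the effector libraries. Members called in KO against WT naive cells were 1 with no filter and 2 with only the groups compared, and in effector cells 1 with a mean of at least 5 CPM (which leaves Il1rn untested), 1 with only the groups compared and 1 on log2(FPKM + 0.1); for the difference of the effects, 1 with no filter. Leaving out each library gave 1 to 4 members in effector cells, 0 in naive cells, 0 to 1 for the difference and 8 to 9 between effector and naive cells. Over all genes, KO against WT naive gave 501 with no filter, 528 with only the groups compared, 40 on log2(FPKM + 1), 57 on log2(FPKM + 0.1) and 66 to 255 without 1 library. In effector cells these were 959, 230, 262, 139 and 194 to 662. The difference of the effects gave 61 with DESeq2, 277, 13 and 8 with no filter and the 2 FPKM scales, and 10 to 85 without 1 library. Values near 0 changed sign without 1 library. Ranges over all the alternatives, those without 1 library included, were in naive cells -0.043 to 0.059 for Il1rap, -0.022 to 0.30 for Il18rap and -0.013 to 0.059 for Sigirr. In effector cells they were -0.077 to 0.058 for Il1rap, -0.28 to 0.010 for Il1rl1 and -0.014 to 0.086 for Sigirr, and for the difference -0.058 to 0.078 for Il1rap and -0.029 to 0.072 for Sigirr. The causes were not tested. No paired analysis was possible because the columns carry no replicate number of the labels. Il1r1, Il1r2 and Il1rn had at most 4 counts over either naive group, and a KO effect on them there was not detectable at this depth.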
